A study of Mus musculus with 4 samples.

Results

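Chemokine receptors are the G protein-coupled receptors by which T cells read the chemokines of the tissue around them, and 9 of their genes (Ccr2, Ccr4, Ccr7, Ccr8, Ccr9, Cxcr3, Cxcr4, Cxcr5 and Cxcr6) are described here in murine CD8+ T cells. They were chosen by name, as every probe on the array whose gene name is 1 of the 9 symbols, with Cxcr5 under its earlier name Blr1. This gave 12 probes for the 9 genes. Of these, 10 probes of 8 genes could be tested, among 19154 genes tested in all.

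The cells under study were in vitro-derived CD8+ T cells: sorted Lin-Sca1+CD117+ progenitors from bone marrow of C57Bl/6 mice aged 6 to 8 weeks, seeded at 100000 and grown for 35 days on OP9-DL1, a stromal line that carries the Notch ligand Delta-like 1, with Flt3 (5 ng/ml) and IL7 (1 ng/ml). They were set against thymic CD8+ T cells of C57Bl/6 mice aged 4 to 5 weeks. Both kinds were sorted as CD8+TCR(beta)hi cells and neither was treated. RNA came as 2 preps per kind, and the 4 arrays held every pairing of an in vitro-derived prep, in Cy5, with a thymic prep, in Cy3. Arrays 1 and 2 set in vitro-derived preps 1 and 2 against thymic prep 1, and arrays 3 and 4 set them against thymic prep 2. Dyes were not swapped and donor ages did not overlap, so a dye effect on a probe, the age of the donors and the origin of the cells cannot be told apart. No animals are named behind the preps, so each p-value reflects only how far these preps lay apart, which may be technical. In bulk RNA, fewer cells of a type and less RNA per cell cannot be told apart.

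All 7 marker genes of CD8 T cells on the list used (Cd8a, Cd8b1, Cd3d, Cd3e, Cd3g, Lck and Cd2) were well above background in both kinds on all 4 arrays. Double-positive thymocyte markers were far higher in the in vitro-derived cells, with a summed linear level of 217000 to 250800 in in vitro-derived preps and 6204 to 6306 in thymic preps. Innate-like and NKT cell markers summed to 5204 to 8207 in in vitro-derived preps and 34250 to 35590 in thymic preps, and mature single-positive markers to 96790 to 99770 in in vitro-derived preps and 293900 to 302400 in thymic preps. Stromal markers summed to 10060 to 12610 in in vitro-derived preps and 1321 to 1391 in thymic preps. Each sum is set mainly by its brightest probes. Among double-positive markers this was Dntt (log2 channel intensity of 17.54 and 17.32 in in vitro-derived preps). Among mature markers these were Cd52 (17.75 and 17.72 in thymic preps) and Klf2 (15.99 and 16.01 in in vitro-derived preps), which was not called. Of the 5 mature markers 4 were called lower, and with median centring 3 lower and 1 higher. The part of these cell types in the receptor differences given below was not tested.

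As background, each chemokine receptor couples to inhibitory G proteins and turns a gradient of its ligand into directed movement and integrin adhesion. In the thymus, Cxcr4 and Ccr9 mark immature thymocytes, while Ccr4 and Ccr7 are gained around positive selection and draw cells towards the medulla. Cxcr3 and Cxcr6 belong to effector, memory and innate-like T cells, and Cxcr5 is best known on B cells and follicular helper T cells.

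Ccr4, Ccr9, Cxcr4 and Cxcr5 were higher in in vitro-derived cells, and Ccr7, Ccr8, Cxcr3 and Cxcr6 were lower. All 8 tested receptors were called (adjusted p under 0.05, limma with Benjamini-Hochberg adjustment over all 19154 genes), where 52.1% of all tested genes were called. In each direction 4 receptors were called, against 26.7% of genes called higher and 25.4% called lower. At least 2-fold differences were called for 6 of the 8, against 11.2% of all genes: Cxcr4 and Cxcr5 were higher by that much, as were 6.21% of genes, and Ccr7, Ccr8, Cxcr3 and Cxcr6 were lower by that much, as were 5% of genes. Ccr8 entered the test only through its thymic signal and had to differ, so the counts of 8 called, 4 lower and 6 at least 2-fold are no support of their own. The median log2 difference was -0.19 over the 8 receptors and 0.03 over all tested genes. A log2 ratio here is the in vitro-derived (Cy5) over the thymic (Cy3) signal of a probe, and each difference is its mean over the 4 arrays with the standard error of the fit (SE, n = 2 preps of each kind).

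**Figure D1:**
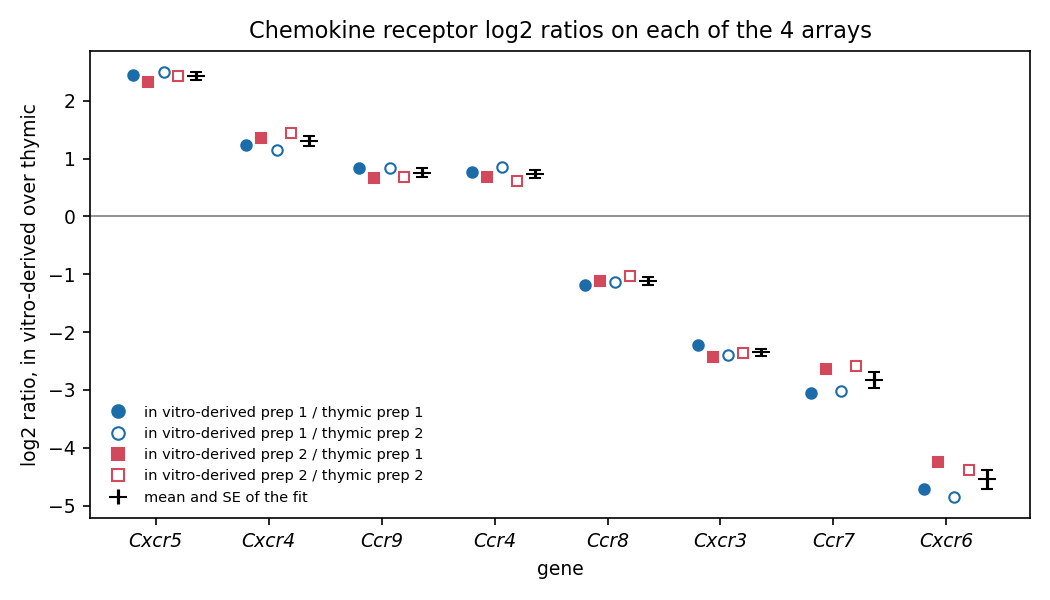
Log2 ratio of in vitro-derived over thymic signal on each of the 4 arrays (points) for the probe that stands for each of the 8 tested receptors, with the mean and SE of the fit (black). Colour and shape give the in vitro-derived prep and filling gives the thymic prep. Cxcr6 lies between -4.85 and -4.24 on the 4 arrays and Cxcr5 between 2.33 and 2.50, and no receptor has points on both sides of 0.

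Promoters are shown for 4 receptors that differ in direction, from 250 bases before to 50 after the start of the gene, as RefSeq gives them in GRCm38.p6. The table held 7 of the 9 receptors, and the promoters of Ccr7 and Cxcr5 could not be searched. A search for 8 motifs covered both strands, and the share of all 32851 promoters of 300 bases that hold a motif is given beside it. Capitals mark Runx motifs (TGTGGT, in 16.8% of promoters), E protein motifs (CAGGTG, in 20.2%) and GC boxes (GGGCGG, in 35.7%), or their reverse complements. Cxcr6 was 23.4-fold lower and Cxcr3 5.10-fold lower in in vitro-derived cells, and their promoters are the 2 of the 7 with a Runx motif. Ccr8 was lower as well and has no Runx motif, and Ccr7, also lower, was not searched. Cxcr4 and Ccr9 were higher, Cxcr4 has the only GC boxes among the 7, and Ccr9 has an E protein motif, as do Ccr4 and Cxcr3.
Cxcr6, chr9:123806227-123806526, plus strand: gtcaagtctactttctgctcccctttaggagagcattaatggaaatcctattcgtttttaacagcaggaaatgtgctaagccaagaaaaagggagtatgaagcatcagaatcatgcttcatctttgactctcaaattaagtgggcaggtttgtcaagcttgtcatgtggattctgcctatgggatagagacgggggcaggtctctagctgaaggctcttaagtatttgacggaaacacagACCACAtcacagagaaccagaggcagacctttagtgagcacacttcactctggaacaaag
Cxcr3, chrX:101734098-101734397, minus strand: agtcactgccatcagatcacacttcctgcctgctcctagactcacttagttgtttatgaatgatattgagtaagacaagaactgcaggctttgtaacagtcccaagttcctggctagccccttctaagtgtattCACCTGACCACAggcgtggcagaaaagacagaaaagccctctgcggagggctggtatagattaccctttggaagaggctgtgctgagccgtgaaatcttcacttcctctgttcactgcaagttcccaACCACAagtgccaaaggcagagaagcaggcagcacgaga
Cxcr4, chr1:128592250-128592549, minus strand: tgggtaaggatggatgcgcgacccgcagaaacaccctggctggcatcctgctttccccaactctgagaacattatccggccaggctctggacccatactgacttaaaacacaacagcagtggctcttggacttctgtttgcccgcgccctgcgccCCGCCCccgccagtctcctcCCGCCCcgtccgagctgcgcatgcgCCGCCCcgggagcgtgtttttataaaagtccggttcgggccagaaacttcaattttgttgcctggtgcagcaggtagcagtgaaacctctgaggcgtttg
Ccr9, chr9:123766961-123767260, plus strand: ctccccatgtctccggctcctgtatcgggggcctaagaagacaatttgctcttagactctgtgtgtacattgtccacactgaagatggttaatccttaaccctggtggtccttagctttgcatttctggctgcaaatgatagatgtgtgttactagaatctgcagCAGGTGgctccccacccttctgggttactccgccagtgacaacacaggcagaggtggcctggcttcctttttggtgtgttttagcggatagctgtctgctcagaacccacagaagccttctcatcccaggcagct
The Runx motif of Cxcr6 lies 10 bases before its start, and those of Cxcr3 lie 110 bases before and 12 bases after its start, the earlier one directly beside the E protein motif at 116 bases before the start. The GC boxes of Cxcr4 lie 95, 75 and 50 bases before its start. The Gata motif (AGATAA, in 11.2% of promoters) is in the promoters of Ccr2 and Ccr8. No T-box motif (GGTGTGA, in 3.98%), Foxo motif (TGTTTAC, in 3.65%), Stat motif (TTCNNNGAA, in 8.3%) or interferon response motif (in 3.44%) was in the 7 windows. These windows do not include Ccr7 or Cxcr5. These matches describe letters and not bound sites.

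Receptors of the thymic cortex and medulla differed in both directions. Ccr7, the receptor for Ccl19 and Ccl21 that leads positively selected thymocytes into the medulla and T cells into lymph nodes, had levels of 11.34 and 11.79 (log2 channel intensity) in in vitro-derived preps 1 and 2, against 14.41 and 14.37 in thymic preps 1 and 2. The groups did not overlap, and the in vitro-derived preps lay further apart than the thymic ones. Its log2 ratios were -3.05 and -3.01 on the arrays with in vitro-derived prep 1 and -2.64 and -2.59 on those with in vitro-derived prep 2. Ccr7 was 7.09-fold lower, with a log2 difference of -2.83 ± 0.14 (adjusted p = 0.000139 by limma), and it was 4.02-fold lower with each array centred on its median. S1pr1, the receptor by which mature thymocytes leave the thymus, was lower as well, at -0.82 ± 0.25, and its call was lost with median centring (-0.13).

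Ccr4, the receptor for the medullary chemokines Ccl17 and Ccl22, had a level of 8.08 and 7.76 in in vitro-derived preps and 7.19 and 7.18 in thymic preps. It was higher in all in vitro-derived preps on this probe, with log2 ratios of 0.76, 0.69, 0.86 and 0.62 on arrays 1 to 4 and a difference of 0.73 ± 0.07 (1.66-fold, adjusted p = 0.00106 by limma). A further probe, which shares 30 of its 60 bases with the main one, gave 0.85 ± 0.08. Agilent's processed signals gave 2.50-fold.

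Ccr9, the receptor for Ccl25 of thymic epithelium and of the small intestine, had 15.38 and 15.27 in in vitro-derived preps and 14.58 and 14.56 in thymic preps. The kinds did not overlap, and preps of the same kind lay closer together than the kinds did. Its log2 ratios were 0.84, 0.67, 0.84 and 0.68 on arrays 1 to 4, which gave a 1.69-fold difference (0.76 ± 0.08, adjusted p = 0.00101 by limma). With each array centred on its median it was 3.56-fold higher, and there the median of all genes was itself at 0.39 in place of 0.03, so that Ccr9 lay 1.45 above that median against 0.73 before.

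Cxcr4, the receptor for Cxcl12 that holds immature thymocytes in the cortex and helps them through beta-selection, had 11.24 and 11.31 in in vitro-derived preps and 9.94 and 10.01 in thymic preps. Its log2 ratios of 1.24, 1.36, 1.16 and 1.44 on arrays 1 to 4 gave a 2.47-fold difference (1.30 ± 0.09, adjusted p = 0.000281 by limma), or 3.75-fold with median centring. A second probe of Cxcr4, with no base in common with the main one and a start 580 bases away, gave 1.06 ± 0.08. Both probes were higher in every in vitro-derived prep. Double-positive thymocyte markers were higher in the same cells, with 5 of 6 tested called higher (83.3%, against 26.7% of all tested genes) and a median of 3.81. The largest were Dntt (6.05 ± 0.19), Arpp21 (5.61 ± 0.12) and Rag1 (4.23 ± 0.12). Their other probes gave smaller values, also called higher: 4.27 and 4.14 for Dntt, 4.23 and 2.73 for Arpp21, and 3.32 and 2.46 for Rag1.

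Ccr8, a receptor known on regulatory and skin-homing T cells, was well above background on none of the arrays in in vitro-derived cells and on all 4 in thymic cells. Its levels were 6.08 and 6.15 in in vitro-derived preps and 7.20 and 7.26 in thymic preps. Its log2 ratios were -1.18, -1.12, -1.13 and -1.03 on arrays 1 to 4. In the reported setting Ccr8 was at least 2.07-fold lower in in vitro-derived cells (adjusted p = 2e-04 by limma). This bound compares the mean thymic signal with the higher of the lowest detected signal and the probe's own on each array, and it is open to dye bias. Agilent's processed signals gave a log2 difference of -3.20 and the deposited table -3.34. A background fitted on all spots gave -0.88, which falls short of that bound (1.05 in log2 units), so the bound holds for the reported setting alone. Markers of CD4 regulatory and helper cells summed to 4452 to 5635 in in vitro-derived preps and 789.5 to 856.7 in thymic preps. Of these 6 markers 3 were tested: Ctla4 (3.54 ± 0.10) and Il2ra (3.44 ± 0.26) were higher. Cd4 was not called on its main probe (0.15 ± 0.06, called at 0.40 with median centring), and its other probe was called higher at 0.64. Foxp3, the defining factor of regulatory T cells, was well above background on 3 of 4 arrays in each kind and was not tested, and Zbtb7b and Cd40lg were above background on none. The part of such cells in the level of Ccr8 was not tested.

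**Figure D2:**
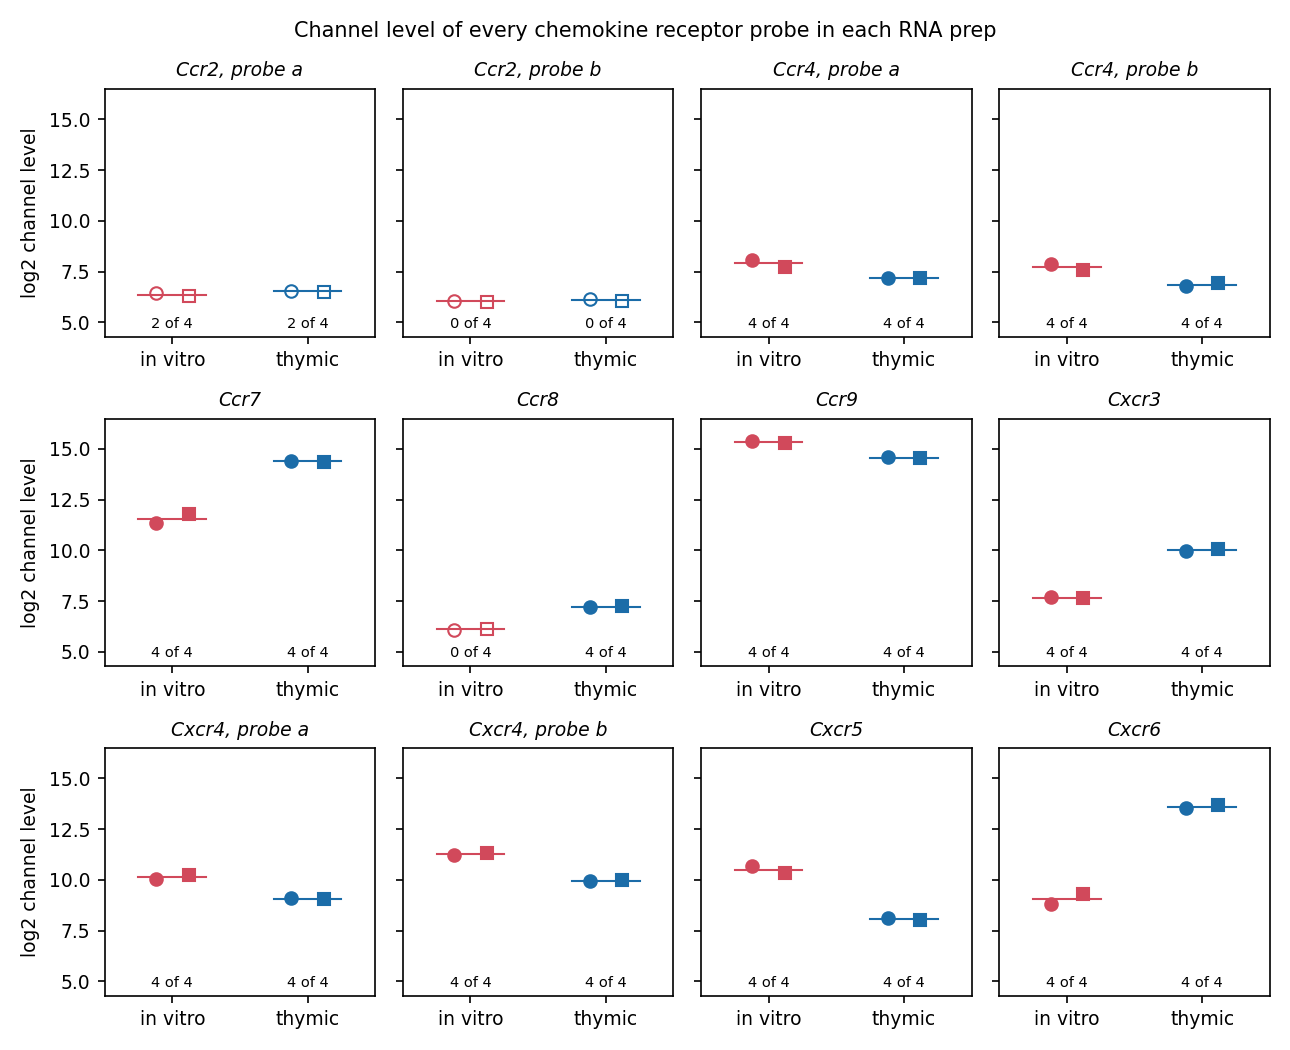
Log2 channel intensity of the receptor probes in each prep, in vitro-derived preps left (red) and thymic preps right (blue), as circles for prep 1 and squares for prep 2 with their mean as a line. Filled points were well above background on all 4 arrays, and the numbers give the arrays on which a probe was well above background. Ccr8 is open in in vitro-derived cells and filled in thymic cells, and levels of different probes are not comparable with each other.

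Effector and innate-like receptors were lower. Cxcr6, the receptor for Cxcl16 on memory, tissue-resident and NKT cells, had levels of 8.80 and 9.31 in in vitro-derived preps, against 13.54 and 13.67 in thymic preps. On arrays with in vitro-derived prep 1 its log2 ratios were -4.72 and -4.85, and on arrays with in vitro-derived prep 2 they were -4.24 and -4.38. Of the 8 tested receptors none differed by more: the difference was -4.55 ± 0.16 (23.4-fold lower, adjusted p = 5.9e-05 by limma), and 14.8-fold lower with median centring. Cxcr3, the receptor for the interferon-induced chemokines Cxcl9, Cxcl10 and Cxcl11, had 7.71 and 7.64 in in vitro-derived preps and 9.96 and 10.09 in thymic preps. The preps of each kind lay close together, and its log2 ratios of -2.22, -2.43, -2.40 and -2.35 on arrays 1 to 4 gave a 5.10-fold lower level (-2.35 ± 0.06, adjusted p = 3.12e-05 by limma). Of 6 innate-like and NKT markers 5 were tested and 4 called lower (80%, against 25.4% of all tested genes), or 3 with median centring. Klrd1 was lower at -2.73 ± 0.40, Eomes at -2.58 ± 0.09 and Il2rb at -2.39 ± 0.14. Tbx21 was lower at -0.75 ± 0.11 and lost its call with median centring (-0.30). Klrb1c was not called (0.34 ± 0.29), and Zbtb16 had no probe.

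Cxcr5 went the other way. It had levels of 10.67 and 10.35 in in vitro-derived preps and 8.14 and 8.03 in thymic preps, and its log2 ratios were 2.45, 2.33, 2.50 and 2.44 on arrays 1 to 4. The 4 arrays lay close together, and the gene was 5.38-fold higher (2.43 ± 0.07, adjusted p = 3.35e-05 by limma). B cell markers summed to 2980 to 3366 in in vitro-derived preps and 3719 to 3744 in thymic preps. That sum was set mainly by Cd79b (11.17 and 10.96 in in vitro-derived preps, 11.49 and 11.50 in thymic preps). Among the 7 of 8 that were tested, Blk was higher (1.38 ± 0.13), Cd79b was lower (-0.43 ± 0.08, but higher at 0.23 with median centring) and Cd79a (-0.13), Ms4a1 (-0.02), Pax5 (0.06) and Cr2 (-0.06) were not called.

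Ccr2, the receptor for Ccl2 best known on monocytes, was not tested, as neither of its probes was well above background on all 4 arrays in any channel. One probe had log2 ratios of -0.16, -0.11, -0.15 and -0.19 on arrays 1 to 4, with levels of 6.45 and 6.30 in in vitro-derived preps and 6.56 and 6.50 in thymic preps, and was well above background on 2 arrays in each kind. The other, 571 bases away, was above background on none. Without the filter on dim probes the difference was -0.15 ± 0.06 (adjusted p = 0.11 by limma). A difference in Ccr2 was not detectable at this signal.

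The in vitro-derived preps lay furthest apart in Ccr7 and Cxcr6. Gaps here are differences between the log2 ratios of the arrays that hold each prep, in which the other channel cancels, and they differ from the gaps between the channel levels given above. On the ratios prep 2 was higher by 0.42 log2 units for Ccr7, a gap larger than that of 95.6% of genes, and by 0.47 for Cxcr6, larger than that of 96.9% of genes. The median absolute gap over all tested genes was 0.10 between in vitro-derived preps and 0.051 between thymic preps. Cxcr4 was 0.21 higher in in vitro-derived prep 2, Ccr4 and Ccr9 were each 0.16 lower, and the gaps of Cxcr5, Cxcr3 and Ccr8 were 0.09 or less in size. On the channel levels the same gap was 0.45 for Ccr7, 0.51 for Cxcr6, 0.06 for Cxcr4, -0.32 for Ccr4, -0.11 for Ccr9 and -0.32 for Cxcr5, so the size for Cxcr4, Ccr4 and Cxcr5 depends on the measure. On the ratios of the thymic preps Cxcr6 differed by 0.13 and the other receptors by 0.08 or less in size. Innate-like markers summed to 5204 in in vitro-derived prep 1 and 8207 in prep 2, and stromal markers to 10060 in prep 1 and 12610 in prep 2; their part in these gaps was not tested.

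The direction of all 8 receptors held in every other setting run, 151 of 151 results. Cxcr5 lay between 2.21 and 2.93, Cxcr6 between -4.78 and -3.89, Cxcr3 between -2.86 and -1.89, Cxcr4 between 1.18 and 1.91 and Ccr7 between -3.03 and -2.01.

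**Figure D3:**
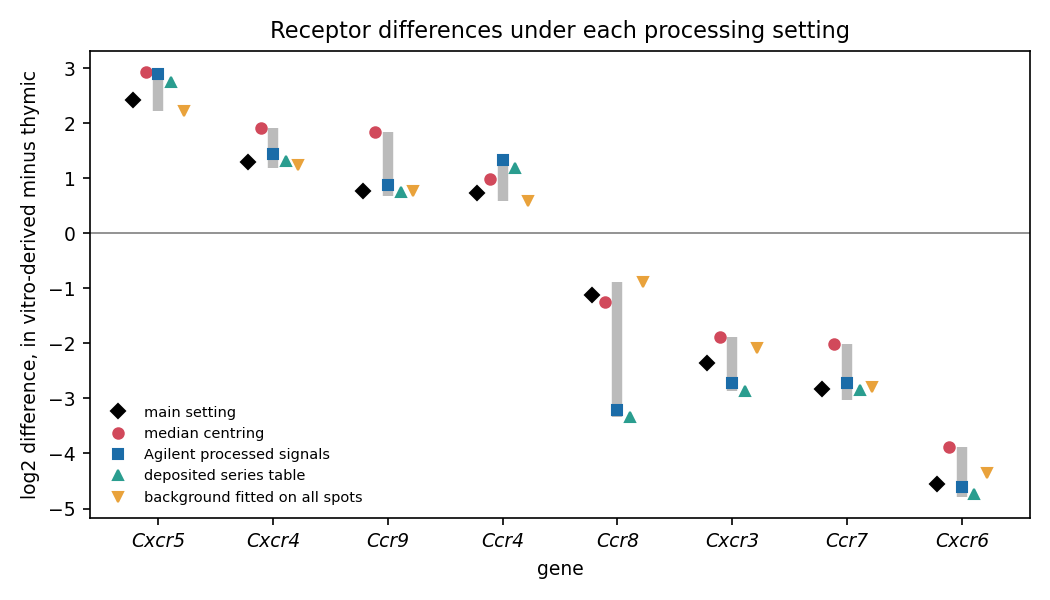
Log2 difference, in vitro-derived minus thymic, of the 8 tested receptors in the reported setting (black), in 4 of the other settings (coloured points) and as the range over all settings (grey bar). Ccr8 runs widest, between -3.34 and -0.88, and no range crosses 0.

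Receptor genes that lie together on the chromosome differed in size and direction. In the GRCm38.p6 gene order Ccr9 (0.76) and Cxcr6 (-4.55) are separated by 1 coding gene on chromosome 9. Next to Cxcr6 follow Xcr1 (-0.03), Ccr1 (not tested), Ccr1l1 (-0.01), Ccr3 (-0.15) and Ccr2 (not tested). Ccr8 (-1.12) lies directly beside Cx3cr1 (-0.75 ± 0.08), whose other probe gave -0.01. Ccr4 and Cxcr5 are elsewhere on chromosome 9, Ccr7 on 11, Cxcr4 on 1 and Cxcr3 on X.

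The counts of the lists that follow stand against 26.7% of all tested genes called higher and 25.4% called lower, or 60.2% and 11.4% with median centring. Of the 14 other chemokine receptors and decoy receptors, 9 were tested: 2 were called higher (22.2%) and 3 lower (33.3%), shares near those of all genes, with a median of -0.03. Ccr6, the receptor for Ccl20 (-0.42 ± 0.06), and Cx3cr1, the fractalkine receptor, were among the lower ones. Ccrl2 was higher (0.32 ± 0.07). The Cxcl12 scavenger Ackr3 was at least 1.16-fold higher in the reported setting alone, and stood at 0.07 without a call under median centring. Ackr3 was well above background on none of the thymic arrays and entered the test only through the in vitro-derived cells. Ccr3, Xcr1, Ackr1 and Ackr2 were not called (Xcr1 and Ackr1 were called higher with median centring, at 0.43 and 0.29), and Ccr1, Ccr10, Cxcr1, Cxcr2 and Ackr4 were not tested.

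Of the 16 listed ligands of the 9 receptors, 15 had a probe and 8 were tested: 3 were called higher, 2 lower and 3 not, with a median of 0.18 (5 higher and 1 lower with median centring). Of the 3 higher ones Ccl2 and Ccl7 entered the test only through the in vitro-derived cells, being well above background on none of the thymic arrays, so the count of 3 is no support of its own. Cxcl12, the ligand of Cxcr4 made mainly by stromal cells, had 10.03 and 10.63 in in vitro-derived preps and 6.88 and 6.86 in thymic preps, and was higher by 3.46 ± 0.15 (log2, adjusted p = 8.59e-05 by limma). In thymic cells it was well above background on 2 of 4 arrays, so the size is uncertain: Agilent's processed signals gave 5.70, the values the authors deposited gave 5.57 and the mean over its probes 2.61, its other probe being at 1.75. Stromal markers were high in the same cells, with 7 of 8 tested called higher, the largest being Pdgfrb (4.69 ± 0.06) and Col1a1 (3.71 ± 0.09). The remaining one, Vcam1, was not called (-0.08) and was called lower with median centring (-0.32). Other probes gave less for Col1a1 (1.22), Fn1 (0.28) and Col3a1 (0.08, not called against 2.89 on its main probe). For Sparc the other probe gave more (2.44 against 1.79). Of the 7, Fn1 and Postn entered the test only through the in vitro-derived cells, while Pdgfra was not above background on any array. The part of stromal RNA in the level of Cxcl12 was not tested. The Ccr2 ligand Ccl2 was 1.76-fold higher (0.81 ± 0.08) and Ccl7 1.31-fold higher (0.39 ± 0.07), at 0.90 and 0.21 with median centring. Their thymic signal was near background, so these sizes are uncertain.

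Cxcl10, a ligand of Cxcr3, was 2.50-fold lower (-1.32 ± 0.28, adjusted p = 0.0132), and its call was lost with the background fitted on all spots (adjusted p = 0.0615). The deposited table gave -1.95. Cxcl16, the ligand of Cxcr6, was lower at -0.29 ± 0.06 and stood at 0.10, not called, with median centring. Ccl17 (-0.03), Ccl19 (0.42) and Ccl25 (-0.08) were not called, and with median centring Ccl19 (0.90) and Ccl25 (0.55) were called higher. The other probe of Ccl19 was called lower at -0.32, so no direction is given for that gene. Of 4 other chemokines that T cells make, 3 were lower: Xcl1 8.36-fold (-3.06 ± 0.13), Ccl5 4.56-fold (-2.19 ± 0.47) and Ccl4 3.95-fold (-1.98 ± 0.22). Ccl5 had 8.85 in in vitro-derived prep 1 and 10.39 in prep 2, against 11.79 and 11.84 in thymic preps, and its difference was -1.45 without in vitro-derived prep 1 and -2.93 without prep 2. Ccl3 (-0.50) was not called.

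Of 35 tested genes of G protein, Rac, Rap and kinase signalling, 8 were called higher (22.9%) and 20 lower (57.1%), with a median of -0.35. With median centring 22 were higher (62.9%) and 6 lower (17.1%), near the shares of all genes in that setting. The genes named next kept their direction under both. Gng2, a G protein gamma subunit, was 5.32-fold lower (-2.41 ± 0.15), Dock8, an exchange factor for Cdc42, was lower at -1.68 ± 0.06, Plcb2, a phospholipase C, at -1.23 ± 0.18 and Rassf5, a Rap effector of integrin adhesion, at -1.07 ± 0.07. With median centring these stood at -1.73 for Gng2, -0.81 for Dock8, -0.63 for Plcb2 and -0.38 for Rassf5, and the 5 other probes of Dock8 lay between -0.62 and -0.02. The Tec family kinase Tec (2.38-fold, at 1.86 log2 with median centring) and the Rac exchange factor Tiam1 (2.21-fold) were higher.

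Of 12 tested genes that end receptor signalling, 10 were called lower (83.3%) and 2 higher (16.7%), with a median of -0.98 (33.3% lower and 16.7% higher with median centring). Rgs16 was 5.67-fold lower (-2.50 ± 0.15) and Rgs3 5.40-fold lower (-2.43 ± 0.06), both regulators that speed GTP hydrolysis by G alpha subunits, and 4 other probes of Rgs3 lay between -1.31 and 0.00. Arrb2, the beta-arrestin 2 gene, was 3.35-fold lower (-1.74 ± 0.06). With median centring Rgs3 stood at -1.71, Arrb2 at -0.92 and Rgs1 at -0.49. Rgs1 was lower at -1.09 ± 0.31 (adjusted p = 0.0338), and its call was lost in 7 of the other settings. Rgs2 was higher at 0.82, and its other probe, at 0.26, was not called. Grk2, the kinase that marks active receptors for arrestin, was called higher at 0.55 on its main probe. Its other probes were called at 0.34 and -0.58, so no direction is given for it.

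Of 15 transcription factors known upstream of these receptors, 4 were called higher (26.7%, the share of all genes), 8 lower (53.3%) and 3 not, with a median of -0.46. With median centring 60% were higher, near the share of all genes, and 33.3% lower. Gata3, a factor of T cell commitment and of CD4 lineage choice, was 4.58-fold higher (2.20 ± 0.08), and the E protein gene Tcf12 was 3.78-fold higher (1.92 ± 0.08). Id2, an inhibitor of E proteins, was 6.70-fold lower (-2.74 ± 0.08). Eomes, a T-box factor of memory CD8 cells, was 5.97-fold lower (-2.58 ± 0.09), Bach2 was lower at -1.54 ± 0.07, and Foxo1, a factor that keeps Ccr7 on in resting T cells, was 2.62-fold lower (-1.39 ± 0.07). With median centring Gata3 stood at 2.93, Tcf12 at 2.81, Id2 at -1.94, Bach2 at -0.78 and Foxo1 at -0.44, and Agilent's processed signals put Eomes at -4.03. Klf2 was not called (0.09 ± 0.08) but was called higher at 1.30 with median centring, and its other probe was called lower at -2.23, so no direction is given for it.

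Of 11 other homing receptors, 9 were called lower (81.8%), none higher and 2 were not called, with a median of -1.12 (54.5% lower and 27.3% higher with median centring). Itgae, the CD103 integrin that binds E-cadherin of epithelium, was 7.37-fold lower (-2.88 ± 0.09) and its partner Itgb7 3.35-fold lower (-1.74 ± 0.06), standing at -1.97 and -0.62 with median centring. Gpr18 was 6.36-fold lower (-2.67 ± 0.18), and Gpr183, the receptor for oxysterols that positions cells in lymphoid tissue, 4.23-fold lower (-2.08 ± 0.08).

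**Figure D4:**
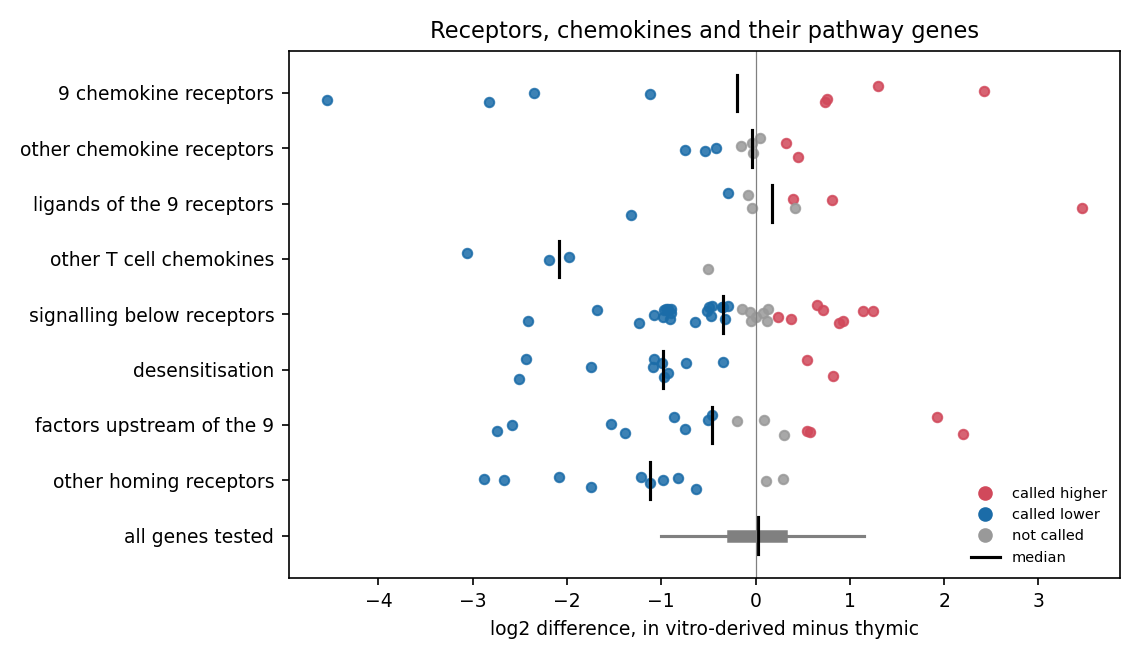
Log2 difference, in vitro-derived minus thymic, of each tested gene of the receptors and their pathway lists (points), with each list's median (black line). The bottom row gives all genes tested, with the 5th to 95th percentile as a thin line and the 25th to 75th (-0.24 to 0.27) as a thick one. Cxcr6 at -4.55 and Cxcr5 at 2.43 lie outside the thin line, and Ccr4 and Ccr9 lie inside it.

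The genes whose 4 ratios lay nearest to those of 3 receptors were found by the root mean square distance over the 4 arrays, which share preps. For Cxcr6 they were Bcl2a1b (0.21 log2 units away), Pacsin1 (0.27) and a transcript named TC1537769 on the array (0.29). For Ccr7 they were BC023892 (0.073), Bcl3, an atypical I kappa B protein (0.074), and Ms4a4d (0.087). For Cxcr5 they were Bst1, a cell-surface ADP-ribosyl cyclase (0.039), Prickle1 (0.064) and the inflammatory protease gene Casp1 (0.068).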

How the data were processed

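Total RNA of each prep was amplified and labelled with an Agilent kit, per the labels' protocols. The authors deposited 1 scanner file per array, with linear intensity values of each spot and its background, and processed signals, made by Feature Extraction 9.5.1.1 (Agilent) as named in those headers. A series table, also deposited, lists a log10 ratio of Cy5 over Cy3 per probe. It matched the scanner's log ratio in scale and sign (correlation at least 0.9999, with 99.6% of values equal within 0.0001 on each array), and each column's median is 0.

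From the deposited intensities, log2 ratios were computed here with limma 3.58.1 in R 4.3.3: normexp background correction with an offset of 50, loess within arrays with control spots at weight 0, and spots of a probe averaged. Spots with a quality mark (133 to 187 on an array) did not enter the background fit or the averages, a choice made with the data seen. The test took probes that some channel showed well above background on every array (27224 of 41174), and the probe of highest mean intensity stood for its gene. Names were updated through RefSeq accessions (22951 probes matched). Channel levels come after loess and Aquantile.

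Each prep was on 2 arrays, so the 4 ratios were turned into 4 prep values and compared by lmFit and eBayes, with 2 residual and 3.04 prior degrees of freedom. Between 63.7% and 65.6% of the 43379 spots were well above background in Cy3 and between 66.5% and 70.9% in Cy5. The number of preps limits the precision: an exact two-sided permutation test of 1 gene cannot go below p = 0.333. The fit was tested on simulated data.

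Prep numbers are shared by both kinds but the labels name no shared source, so they do not pair preps. The receptors and lists were chosen with earlier results of these data known. Text names every receptor, up to 4 genes per list and direction called at least 2-fold, and receptors that neighbour them; genes below that size and marker genes were named after their values were seen. Some genes of the lists are not reported here by name. Alternatives were other backgrounds, offsets, normalizations, filters and probe rules, the deposited table, the prep number as a block, and leaving out each prep or array.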

Additional observations from a re-analysis of the deposited data

How the results depend on the processing

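All 8 tested receptors kept their direction and call in every alternative that tested them, and 7 of 7 were called with a filter on both channels, where Ccr8 was not tested. Over all genes 9975 were called (5115 higher, 4860 lower). Leaving out 1 prep or array gave 5800 to 9995, with 6067 without thymic prep 1 and 5800 without thymic prep 2, while the receptor count stayed at 8. With the prep number as a replicate block 10275 genes and 8 receptors were called, and no receptor's call changed. Across genes, deviations of same-numbered preps correlated at 0.126. Median centring moved the median of all genes by 0.36 (log2) and the share of calls that were higher to 84.1%, against 51.3% with loess and 60.5% with Agilent's processed signals. Relative to the median of all genes, Cxcr6 lay at -4.28 with median centring and -4.58 with loess, Ccr7 at -2.40 and -2.85, and Cxcr4 at 1.52 and 1.27. For 25 list genes called at least 2-fold, each setting was run: of 474 results 465 kept their call and 9 lost it, 7 of Rgs1 and 2 of Cxcl10. The smaller list genes and the markers were compared under median centring alone. There, among those whose call the text gives, S1pr1, Cxcl16, Ackr3 and Tbx21 lost their call. Cd79b was higher at 0.23 in place of lower at -0.43. The cause of these changes was not tested. Signal near background limits Ccr2, Ccr8 and the lowest channel levels.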
